A study of Mus musculus with 24 samples.

Results

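Sik1, a kinase of the salt-inducible kinase family, was followed with 9 immediate early genes (Nr4a1, Fos, Fosb, Jun, Junb, Egr1, Atf3, Ier2 and Dusp1) in RNA of whole kidneys from 24 mice. These 10 genes were chosen by symbol out of 55335 in the files, with their cKO against Ctrl differences in each sex already known, and all 10 were among the 16092 genes tested (at least 1 CPM, counts scaled by the size of the library, in at least 1 kidney). Their genotype differences are therefore described without a test. The mice carried a floxed Pex5, the import receptor of peroxisomes, on a C57BL/6J background. The cKO mice (Pex5lox/lox/Pax8-rtTA/LC1) also had Pax8-rtTA, which drives the LC1 Cre in the renal tubule once doxycycline (DOX) is given, and the control mice (Pex5lox/lox) lacked both. All groups, controls included, drank DOX for 2 weeks once they were 8 weeks old, and were killed 4 weeks after its end. Each of the groups Ctrlm, cKOm (males), Ctrlf and cKOf (females) held 6 mice. The time of day of collection differs between the sources, with ZT 9 in one and ZT 3 in the other (ZT counts hours from lights on). The whole kidney also holds cells in which Pax8-rtTA is silent, so fewer cells of a type and less RNA per cell cannot be told apart.

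Immediate early genes are transcribed within minutes of a stimulus from factors that are already in place, among them CREB, serum response factor and its partners, and AP-1, and most of their mRNAs are short-lived. Fos and Jun family proteins pair to form AP-1, Egr1 and Nr4a1 are transcription factors of the zinc finger and orphan receptor families, and Dusp1 is a phosphatase that switches MAP kinases off. Sik1 is itself induced by cAMP signalling through CREB, and its kinase keeps the CREB coactivators of the CRTC family out of the nucleus. In the kidney it is also known for its link to sodium transport in tubule cells.

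The sequence just before the transcription start is shown for the genes whose levels are compared below, because CREB binds such stretches at the CRE (TGACGTCA) and at its shorter core (TGACG). RefSeq windows on GRCm38.p6 were matched for 7 of the 10 genes (Nr4a1, Fos, Fosb, Jun, Junb, Atf3 and Dusp1). Of these, 5 are printed as the 150 bases before the start, 5′ to 3′ on the strand of the gene, with capitals for a CRE, a core site on either strand (CGTCA on the other strand) or a TATAAA. The windows lie at chr15:101266696-101266845 (Nr4a1, + strand), chr12:85473740-85473889 (Fos, + strand), chr7:19310046-19310195 (Fosb, − strand), chr8:84978749-84978898 (Junb, − strand) and chr17:26508473-26508622 (Dusp1, − strand).
Nr4a1: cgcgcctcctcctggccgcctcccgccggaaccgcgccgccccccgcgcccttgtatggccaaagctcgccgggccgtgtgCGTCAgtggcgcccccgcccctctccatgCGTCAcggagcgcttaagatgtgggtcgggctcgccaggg
Fos: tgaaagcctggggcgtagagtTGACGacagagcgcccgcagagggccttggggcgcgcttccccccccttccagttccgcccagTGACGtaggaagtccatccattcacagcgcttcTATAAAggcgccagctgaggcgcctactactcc
Fosb: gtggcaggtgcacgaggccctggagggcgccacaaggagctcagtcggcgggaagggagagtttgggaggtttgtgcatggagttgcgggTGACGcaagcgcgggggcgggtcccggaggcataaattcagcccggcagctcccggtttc
Junb: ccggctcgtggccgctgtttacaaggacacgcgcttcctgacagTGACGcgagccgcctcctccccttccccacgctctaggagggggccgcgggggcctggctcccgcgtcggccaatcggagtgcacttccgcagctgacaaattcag
Dusp1: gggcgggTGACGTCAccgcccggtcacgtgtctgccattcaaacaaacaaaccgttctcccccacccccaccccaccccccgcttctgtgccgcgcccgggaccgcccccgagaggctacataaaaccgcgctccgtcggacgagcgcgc

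Over the 250 bases before the start, a core site was found in 6 of the 7 windows (not in Jun), against 17.8% of the 32851 mouse promoter windows of the same length. Nr4a1 held 4 of them. The full CRE, which contains the core site on both strands, was found in Dusp1 alone, starting 143 bases before the start of transcription, and in 1.55% of all windows. TATAAA was found in Fos alone (12.4% of all windows) and the GC box GGGCGG in 6 of the 7, all but Junb (32.7% of all windows). Neither the AP-1 motif TGANTCA (6.75% of all windows) nor the CArG box of serum response factor (1.47%) was found in the 7 windows. These counts say only which letters stand in these windows.

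Most of these genes are short. The genomic span was under the median of the tested genes, 21575 bases, for 8 of the 10, from 1522 bases for Ier2 to 20527 for Nr4a1. Those of Atf3 and Dusp1, 47744 and 56539 bases in GENCODE, were longer. Both of these spans begin well upstream of the RefSeq starts used above, so these lengths depend on the annotation. For Dusp1, on the − strand of chromosome 17, GENCODE begins at 26562128, and the RefSeq window ends at 26508473. Sik1 lies on chromosome 17 from 31844250 to 31855804 on the − strand, and no other annotated gene overlaps it. Junb overlaps Prdx2, and Dusp1 overlaps Ergic1, on the opposite strand, and Jun overlaps its antisense gene Junos. The strand setting of the authors' counting is not given in the sources used here, so a share of those reads may belong to the neighbour.

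Libraries held between 19376152 and 28470831 counts on genes, and kidneys of 1 group differed beyond counting noise in all 60 pairs (lowest chi-square per degree of freedom 9.83, highest 99.2). Pex5, counted over all exons and all cells, was 54.2 ± 4.63 CPM in Ctrlm and 43.7 ± 1.94 in cKOm (mean ± SD, n = 6), with a log2 fold change of -0.31 ± 0.08 (SE, edgeR adjusted p = 0.0219). In females Pex5 was 50.2 ± 6.96 CPM in Ctrlf and 43.5 ± 3.55 in cKOf (log2 fold change -0.21 ± 0.08, edgeR adjusted p = 0.177). The proximal tubule markers (Lrp2, Cubn, Slc34a1, Slc5a2, Slc22a6) summed to between 5923 and 8605 CPM, so the labelled tissue held its defining markers. Transcripts of other tissues were present too. The summed hepatocyte markers ran from 72.8 to 906 CPM in Ctrlm and from 120.4 to 488 in cKOm, and stayed at or under 119 in all females. Interferon response genes were highest in Ctrlf replicate 1, at 242 CPM, and cKOm replicate 4 had the largest share of reads aligned to more than 1 place, 34.8%.

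Sik1 was higher in every cKOm kidney than in each of the 18 other kidneys. In Ctrlm it ranged from 53.7 to 81.4 CPM with a median of 57.6, and in cKOm from 140 to 198 with a median of 161. In Ctrlf it ranged from 73.2 to 107 CPM with a median of 91.3, and in cKOf from 70.7 to 94.0 with a median of 81.9. So the male groups were apart by more than the width of either group, and the female groups overlapped along most of their range. The fitted log2 fold change of Sik1 was 1.37 ± 0.11 (SE) in males, a 2.59-fold level, and -0.14 ± 0.11 in females. The male minus the female difference was 1.52 ± 0.16. The paper found some full-length Pex5 mRNA and PEX5 protein left in cKOf kidneys and proposes incomplete excision there. By electron microscopy it saw almost no peroxisomes in the proximal tubules of either cKO sex. It also does not exclude that peroxisomes work differently in the kidneys of each sex. Sex and the completeness of excision can therefore not be told apart. Of all genes tested, 0.36% had every cKOm kidney above the other 18, and 2.31% passed the test of the interaction of genotype and sex.

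**Figure D1:**
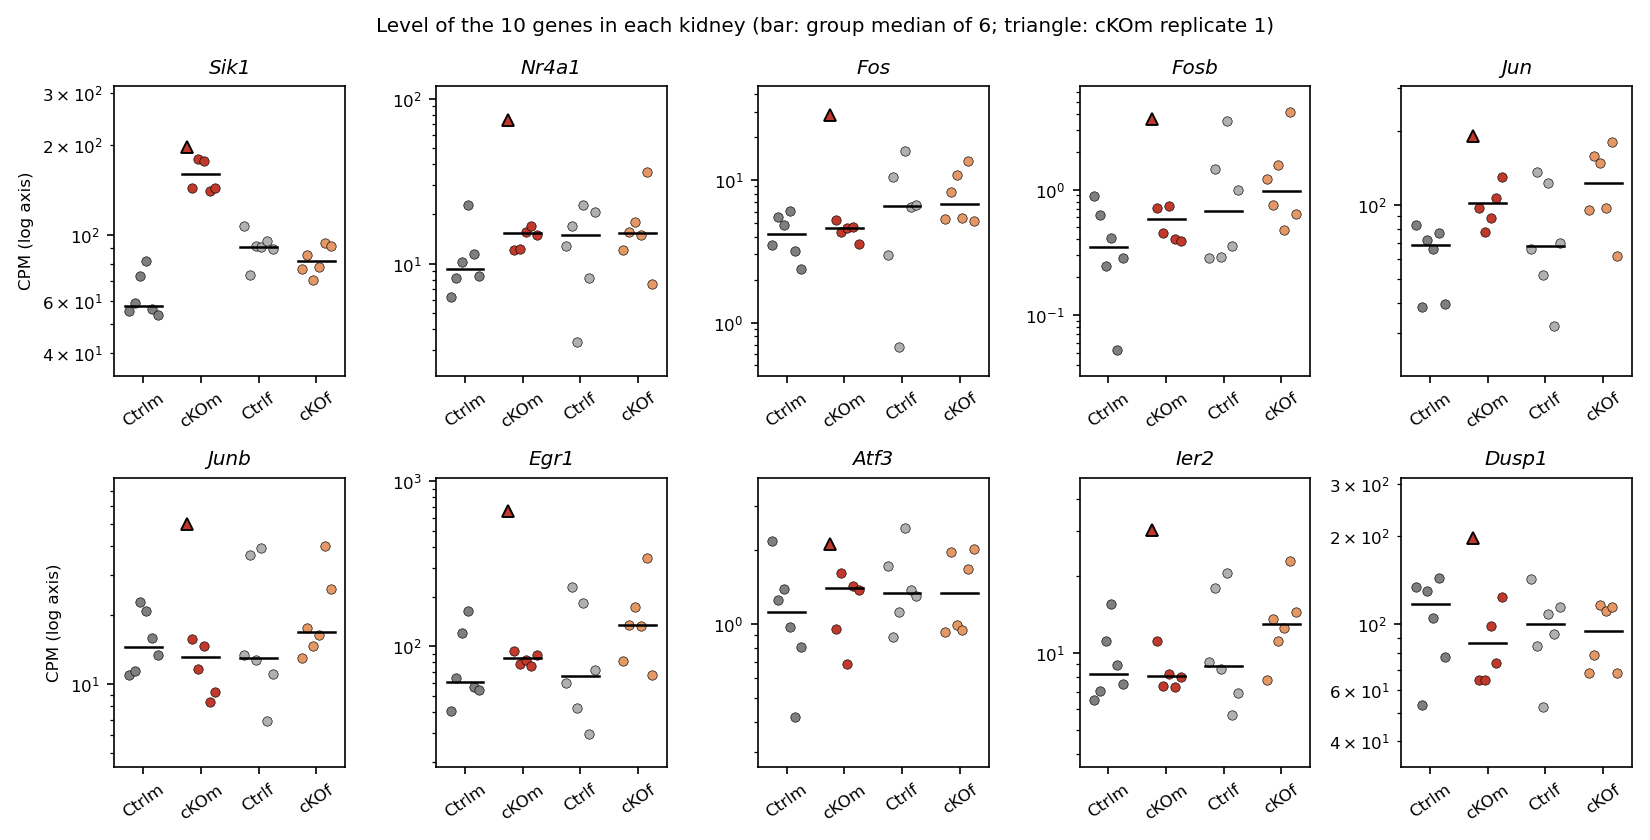
Level of each of the 10 genes in each kidney, in CPM on a log axis, by group (n = 6 per group). Points are mice, bars are group medians and the triangle is cKOm replicate 1. The 6 cKOm points of Sik1 lie between 140 and 198 CPM, above all others, while in Nr4a1, Fos, Junb, Egr1 and Ier2 the triangle lies far above the other 5 cKOm points.

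The rise of Sik1 did not rest on one mouse. Leaving out each of the 24 mice in turn gave male log2 fold changes of Sik1 from 1.30 to 1.46 and female ones from -0.20 to -0.09. With the hepatocyte marker score of each kidney as a covariate, the male value was 1.46. The summed proximal tubule markers moved with the same groups. They ran from 5923 to 6805 CPM in cKOm against 7590 to 8605 in Ctrlm, with 3 of the 5 lower in cKOm by the test, and their part in the difference of Sik1 was not tested.

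The spread of Sik1 between mice was small beside that of the immediate early genes. Its biological coefficient of variation, the spread left after counting noise, was 0.139, under the median of 0.168 over all tested genes. That of the other 9 members was above this median in every case, from 0.317 for Dusp1 to 0.775 for Fosb. Within Ctrlf, for example, the highest Fos level was 23.6 times the lowest and the highest Sik1 level was 1.46 times the lowest.

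Among the Fos and Jun family genes, which form AP-1, the difference of Fos in males rested on a single kidney. Fos had a lowest, median and highest level of 2.38, 4.18 and 6.05 CPM in Ctrlm, and of 3.55, 4.61 and 28.4 in cKOm. The next highest cKOm kidney had 5.26 CPM, inside the Ctrlm range. In females, Fos had 0.676, 6.60 and 15.98 CPM in Ctrlf and 5.17, 6.83 and 13.5 in cKOf. The log2 fold change of Fos was 0.99 ± 0.52 (SE) in males and 0.16 ± 0.51 in females, and without cKOm replicate 1 the male value was 0.07 ± 0.43. Fosb, the least abundant member, ranged from 0.0521 to 0.891 CPM in Ctrlm and from 0.390 to 3.66 in cKOm. Its values sit close to the floor of detection, 3 counts, which is from 0.105 to 0.155 CPM at these depths and covers counting error only.

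Jun differed from Fos, Fosb and Junb in that 5 of the 6 cKOm kidneys were above the highest Ctrlm kidney. Its lowest, median and highest levels were 38.3, 69.0 and 83.2 CPM in Ctrlm and 77.7, 102 and 191 in cKOm. In females they were 32.2, 68.0 and 137 CPM in Ctrlf and 62.0, 123 and 181 in cKOf, where 3 of 6 cKOf kidneys were above the highest Ctrlf one. The log2 fold changes of Jun were close in both sexes, 0.88 ± 0.30 (SE) in males and 0.63 ± 0.30 in females, and the difference between them was 0.25 ± 0.42. Leaving out each mouse in turn moved the male value of Jun between 0.68 and 0.98 and the female one between 0.47 and 0.86. Junb had medians of 14.6 CPM in Ctrlm and 13.1 in cKOm, so its median was lower in cKOm although the fitted log2 fold change was 0.20 ± 0.42. Without cKOm replicate 1 the fitted value for Junb was -0.41 ± 0.37.

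The transcription factors Egr1 and Nr4a1 resembled Fos in males, with a single cKOm kidney far above the others. Egr1 ranged from 40.4 to 164 CPM in Ctrlm with a median of 60.6, and from 76.4 to 659 in cKOm with a median of 85.4. The next highest cKOm kidney had 94.0 CPM, so 5 cKOm kidneys lay within the Ctrlm range. The log2 fold change of Egr1 was 1.11 ± 0.56 (SE), and 0.01 ± 0.45 without cKOm replicate 1. In females the median of Egr1 was 65.9 CPM in Ctrlf and 134 in cKOf, with overlapping ranges of 29.6 to 229 and 67.2 to 344 and a log2 fold change of 0.60 ± 0.55. Without cKOf replicate 5, the highest cKOf kidney, the female value of Egr1 was 0.20 ± 0.56. Nr4a1 had a median of 9.29 CPM in Ctrlm and 15.3 in cKOm, where the highest kidney had 74.8 and the next 17.03. Its log2 fold change was 1.13 ± 0.46 in males and 0.30 ± 0.45 in females. The male value of Nr4a1 was 0.37 ± 0.38 without cKOm replicate 1. Every cKOm kidney but that one was below the highest Ctrlm kidney, at 22.7 CPM. The next highest Ctrlm kidney had 11.4 CPM, under the lowest cKOm kidney at 12.0 CPM.

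Ier2, Atf3 and Dusp1 had smaller differences in males than Fos or Egr1 with all mice in the fit. Ier2, a nuclear protein induced by growth factors, had medians of 8.26 CPM in Ctrlm and 8.13 in cKOm, and a log2 fold change of 0.35 ± 0.35 (SE) in males that was -0.17 ± 0.30 without cKOm replicate 1. Atf3, a stress-induced member of the ATF/CREB family, stayed between 0.417 and 2.46 CPM in all 24 kidneys. Its log2 fold change was 0.21 ± 0.35 in males and -0.05 ± 0.34 in females. Dusp1, the MAP kinase phosphatase, had medians of 117 CPM in Ctrlm and 86.2 in cKOm, 100.2 in Ctrlf and 95.0 in cKOf. Its log2 fold change was -0.05 ± 0.26 in males and -0.09 ± 0.26 in females, and all its groups overlapped. Without cKOm replicate 1, which had 197 CPM against 124 in the next cKOm kidney, the male value of Dusp1 was -0.33 ± 0.24.

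Over the 10 members, the median log2 fold change was 0.94 in males and 0.21 in females, beside 0.015 in males and 0.0019 in females over all tested genes. Values were above 0 for 9 members in males and for 7 in females. Both figures moved with single kidneys. Without cKOm replicate 1 the male median was 0.060, with 7 members above 0, and without cKOf replicate 5 the female median was -0.078, with 3 above 0. In 1 of the 10, Sik1, the cKOm group lay wholly above the Ctrlm group, as it did in 3.69% of all genes tested, and 3.69% of all genes were wholly below. In females no member was without overlap (0.267% of all genes wholly higher and 0.292% wholly lower). The members were chosen on these contrasts, so nothing is read from these counts.

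**Figure D2:**
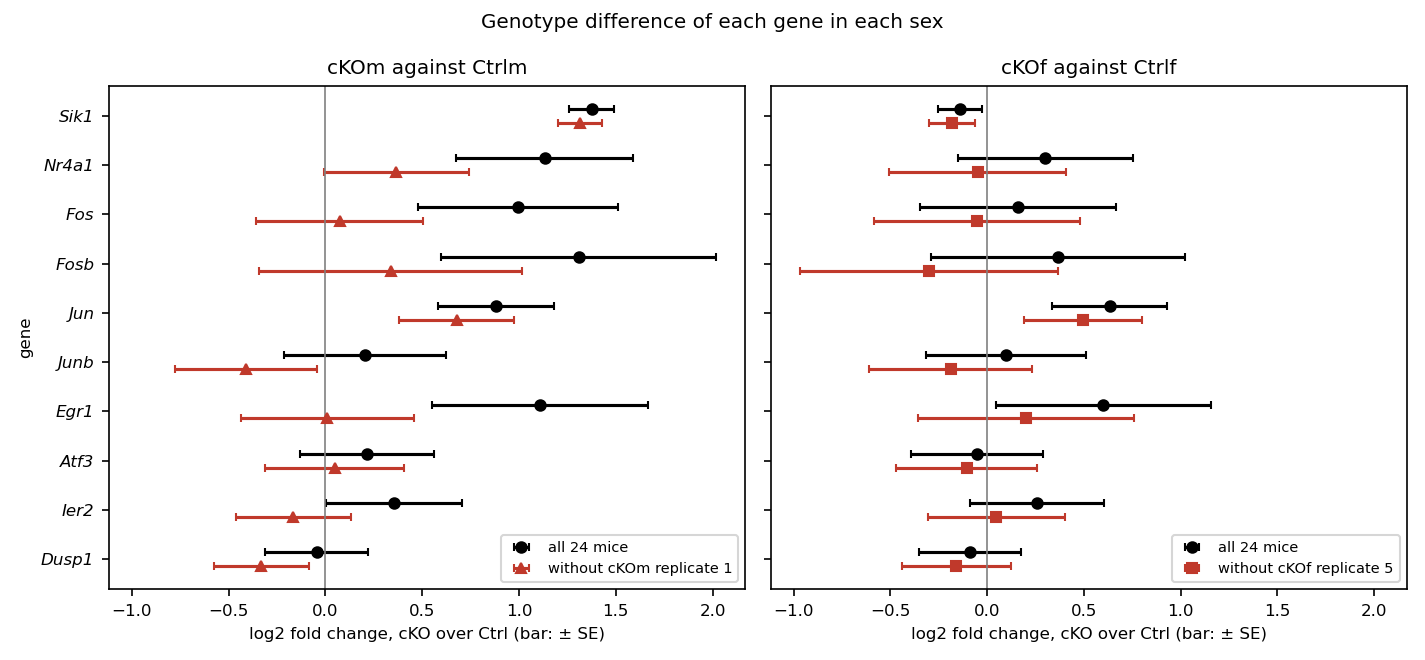
Log2 fold change of cKO over Ctrl (x axis) for each gene (y axis) in males, left, and females, right, with bars of 1 SE from the edgeR fit. Black circles use all 24 mice, red triangles leave out cKOm replicate 1 and red squares leave out cKOf replicate 5. Sik1 stays at 1.31 in males without that mouse, while Fos and Egr1 come to 0.07 and 0.01.

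The kidney of cKOm replicate 1 had the highest level of the 24 for 8 of the 10 members, all but Fosb and Atf3. It was also the highest for the sum of a separate list of other immediate early genes, at 2566 CPM against at most 1881 in any other kidney. Its adipocyte markers summed to 76.2 CPM, the second highest of the 24 after Ctrlf replicate 6 with 224. Its heat shock genes, at 1149 CPM, ranked 15 of 24, and its interferon response genes, at 42.6 CPM, ranked last. Their part in the levels of the members was not tested. In that kidney Sik1 was 198 CPM, and in the next highest cKOm kidney it was 180 CPM.

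With group means taken out, Nr4a1, Fos, Fosb, Jun, Junb, Egr1 and Ier2 tended to rise and fall together over the 24 mice. Levels on the log2 CPM scale were taken as deviations from the mean of the group. This removed the differences between group means, but not the far values of cKOm replicate 1, on which several male differences rested. The test is therefore not independent of how the genes were chosen. The 45 pairs of members were correlated over 24 mice by a two-sided permutation test with 100000 shuffles within groups. Of the 45 pairs, 23 passed an adjusted p of 0.05 (Benjamini-Hochberg over the pairs), all with a positive r. Of these 23 pairs, 21 were the full set of pairs among Nr4a1, Fos, Fosb, Jun, Junb, Egr1 and Ier2, with Pearson r from 0.558 to 0.959. The other 2 joined Dusp1 to Nr4a1 and to Jun, while its pairs with the rest did not pass (r with Fosb 0.261, adjusted permutation p = 0.316 over 24 mice). No pair of Atf3 passed. The pattern did not hold in every group. In Ctrlm, r of Fosb over 6 mice was -0.33 with Nr4a1, -0.18 with Jun, -0.48 with Junb, -0.13 with Egr1 and -0.30 with Ier2. With Fos it was 0.33, and Fosb had only 1 to 19 counts per Ctrlm kidney.

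The closest pair was Junb and Ier2, which both lie on chromosome 8 and do not overlap. Their Pearson r was 0.959 over 24 mice (permutation p = 1e-05, the smallest that 100000 shuffles can give, adjusted p = 0.00045) and their Spearman rho was 0.941 (permutation p = 1e-05, adjusted p = 0.00045). Without the 2 mice farthest from the median of Junb, r was 0.930, and within the groups of 6 mice it ran from 0.90 to 0.99. Egr1 and Ier2 had r = 0.904 and rho = 0.735 (permutation p = 3e-05 and 0.00042, adjusted p = 0.00045 and 0.00405), and r was 0.837 without the 2 mice farthest from the median of Egr1. Nr4a1 and Fos, a receptor and an AP-1 subunit, had r = 0.839 and rho = 0.695 (permutation p = 0.00024 and 0.00134, adjusted p = 0.00154 and 0.0067), with r = 0.680 without the 2 mice farthest from the median of Nr4a1. Over the 21 pairs, leaving out the 2 farthest mice of the first gene gave r from 0.330 to 0.930.

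Sik1 was not part of that pattern at the threshold. None of its 9 pairs passed, and none had an unadjusted permutation p of Pearson's r under 0.05. Pearson r with Sik1 ran from -0.062 for Jun to 0.380 for Ier2 over 24 mice (adjusted permutation p = 0.778 and 0.138), and the median over the 9 pairs was 0.284 against 0.624 over the 36 pairs of the other members. In Spearman's rho, Atf3 was closest to Sik1, at 0.456 (permutation p = 0.0382, adjusted p = 0.0861). The groups were unlike each other. Between Sik1 and Egr1, r over 6 mice was 0.97 for Ctrlm, 0.63 for cKOm, -0.65 for Ctrlf and 0.15 for cKOf. A missed threshold does not show that Sik1 and the other genes varied independently.

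The number of pairs depended on a single mouse. Without cKOm replicate 1, 8 of the 45 pairs passed, all of them among the 23. They were Nr4a1 with Fos and with Egr1, Fos with Fosb and with Egr1, Junb with Egr1 and with Ier2, Jun with Egr1, and Egr1 with Ier2. Ranks gave 15 pairs. No label gives the order or time of dissection of single mice.

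**Figure D3:**
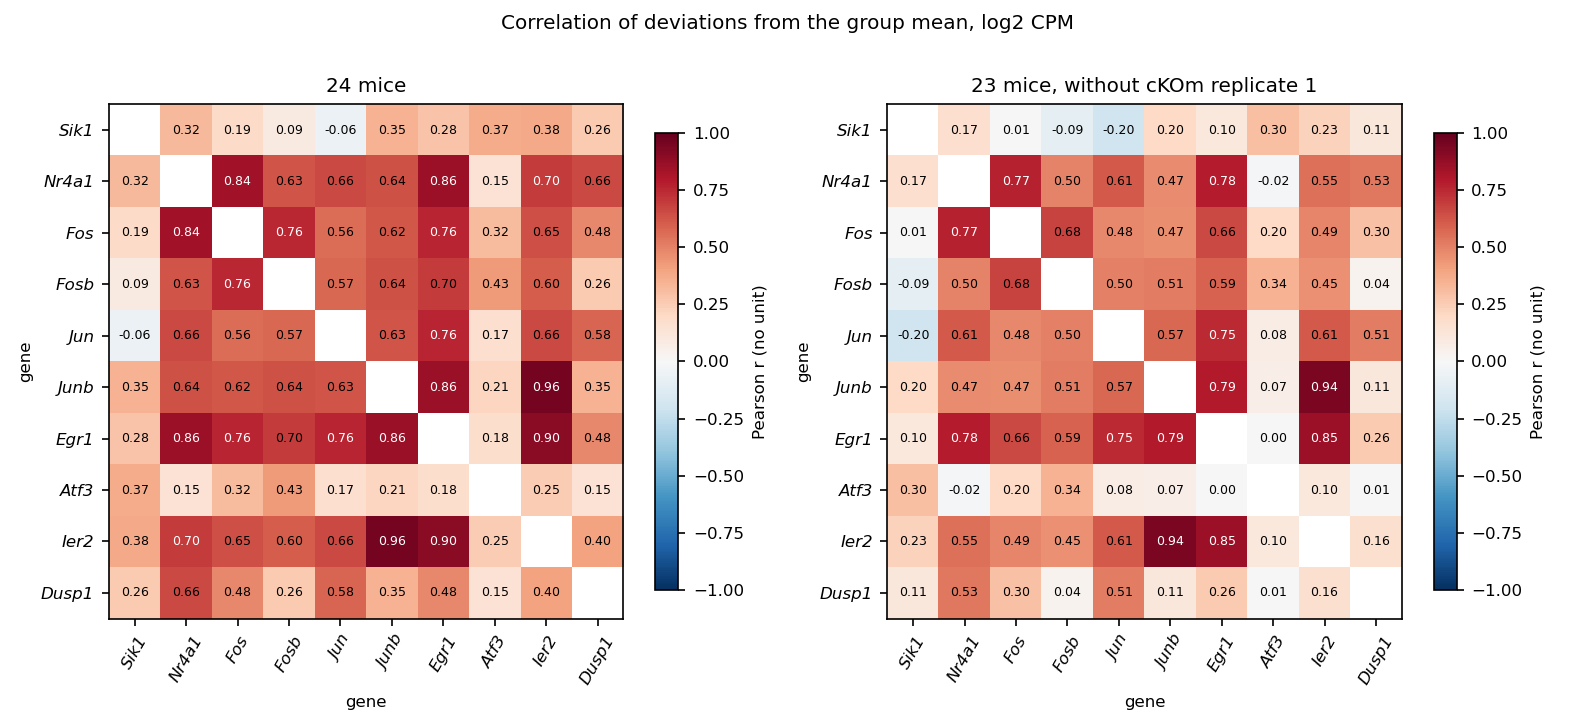
Pearson correlation (colour, no unit) of each pair of the 10 genes, from deviations of log2 CPM from the group mean. The left panel uses 24 mice and the right panel 23, without cKOm replicate 1. The row of Sik1 stays between -0.06 and 0.38 on the left, and Junb with Ier2 is the darkest cell, at 0.96 on the left and 0.94 on the right.

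The genes that most resembled Sik1 in this within-group variation were not on the lists of immediate early genes used here, which are not complete. Among 13489 tested genes with a mean of at least 1 CPM in every group, Cwf19l1 had the highest r with Sik1, 0.72 over 24 mice. It was followed by Emx2os (0.71), Apold1 (0.68), Cplx2 (0.67) and Upp2, the uridine phosphorylase (0.66). For Fos, the closest were Btg2, an antiproliferative immediate early gene (0.82), Zfp36, which binds unstable mRNAs (0.79), Ccn1, formerly Cyr61 (0.75), Nop9 (0.74) and Adamts2 (0.70). These r values rank genes over the same 24 libraries, were picked as the highest of 13489, and carry no test. Upp2 differed from Sik1 in its group levels, with means of 39.97 ± 6.75 CPM in Ctrlm and 16.3 ± 3.68 in cKOm (SD, n = 6), and of 9.58 and 9.42 CPM in the females, Ctrlf and cKOf.

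Levels between genes were compared per kilobase of exons (CPM per kb). In Ctrlm the order ran from Dusp1, at 32.4 ± 10.8 CPM per kb (SD, n = 6), through Jun (19.7 ± 6.03), Egr1 (18.6 ± 10.8), Sik1 (12.3 ± 2.21), Junb (6.90 ± 2.17), Ier2 (6.22 ± 2.23), Nr4a1 (3.19 ± 1.69), Fos (1.801 ± 0.61) and Atf3 (0.54 ± 0.28) to Fosb (0.067 ± 0.048). Jun and Egr1, Egr1 and Sik1, Junb and Ier2, and Nr4a1 and Fos were neighbours whose means differed by less than the larger of their SDs. In cKOm, Sik1 ranked 3 of 10 at 31.9 ± 4.77 CPM per kb, next to Jun (36.1 ± 12.9) and Dusp1 (31.4 ± 15.5), and these 3 were within 1 SD of each other. In Ctrlf and cKOf Sik1 ranked 4 of 10, at 17.8 ± 2.12 and 16.1 ± 1.76 CPM per kb. Fosb was the lowest and Atf3 the second lowest of the 10 in every group.

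Averaged over both genotypes, Sik1 was higher in males than in females by 0.22 ± 0.08 on the log2 scale (SE), given without a test because the average includes the cKOm kidneys on which Sik1 was chosen. Its means were 63.1 and 164 CPM in Ctrlm and cKOm, and 91.3 and 82.8 CPM in Ctrlf and cKOf. In controls the order was thus the other way round, with 5 of the 6 Ctrlf kidneys above every Ctrlm kidney. With the hepatocyte score as a covariate the average difference of Sik1 was 0.11. None of the other 9 members passed the test of sex, with log2 differences (male minus female) from -0.96 ± 0.48 for Fosb (edgeR adjusted p = 0.173) to 0.14 ± 0.19 for Dusp1 (edgeR adjusted p = 0.669), and none of the 9 had an unadjusted p under 0.05. Fosb passed as lower in males once cKOm replicate 1 was left out (-1.44, edgeR adjusted p = 0.0238). That kidney had the highest Fosb of all males, 3.66 CPM, so leaving it out lowers the male level by itself. The high female kidneys, Ctrlf replicate 4 at 3.53 CPM and cKOf replicate 5 at 4.19, were kept. Nothing is therefore read from this call. Of all tested genes, 10.4% were called higher and 11% lower in males.

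The pathways around these genes were followed in 6 lists written from general knowledge, tested in the same fit over all genes. In males 4.14% of all tested genes were called higher and 4.9% lower in cKO, and in females 0.391% higher and 0.46% lower. The list of other immediate early genes had 33 tested of 35 (Fosl1 and Dusp2 were too low). In males 1 of the 33 rose, none fell, and the median log2 fold change was 0.23. It was Nr4a2, an orphan receptor related to Nr4a1, with 0.886 to 1.33 CPM in Ctrlm and 1.58 to 2.79 in cKOm. All cKOm kidneys were above all Ctrlm kidneys, and the log2 fold change was 1.02 ± 0.30 (SE, edgeR adjusted p = 0.0459). Levels of Nr4a2 are low, at most 2.79 CPM in males, and leaving out each of the 24 mice in turn gave adjusted p values from 0.0233 to 0.114, over 0.05 for 16 mice. In females none of the 33 passed (median log2 fold change 0.15), while 4 had an unadjusted p under 0.05 against 9 in males.

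In the SIK and CRTC-CREB list, 2 of 23 genes rose in males and none fell. Crtc1, one of the CREB coactivators held back by SIK kinases, had levels of 9.85 to 17.7 CPM in Ctrlm and 19.6 to 23.6 in cKOm. The groups did not overlap, and its log2 fold change was 0.56 ± 0.13 (SE, edgeR adjusted p = 0.0103). Crebbp, the acetyltransferase that CREB recruits, had 30.1 to 40.9 CPM in Ctrlm and 43.6 to 59.9 in cKOm, with a log2 fold change of 0.41 ± 0.12 (edgeR adjusted p = 0.0436). With each of the 24 mice left out in turn, the adjusted p of Crtc1 stayed between 0.00456 and 0.0314, and that of Crebbp ran from 0.00459 to 0.129 and was over 0.05 for 17 mice. Sik2 and Sik3, the other kinases of the family, had log2 fold changes of 0.27 and 0.26 in males (edgeR adjusted p = 0.494 and 0.0646), and Crtc2 and Crtc3 had 0.03 and -0.04. In females none of the 23 passed the edgeR test, 1 had an unadjusted p under 0.05 and the median was 0.02. The difference between the sexes did not pass for Crtc1 or Crebbp (interaction in edgeR, adjusted p = 0.375 for Crtc1 and 0.290 for Crebbp).

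Of 7 metabolic genes that CREB is known to regulate, 1 rose and 1 fell in males. Pde4d, a phosphodiesterase that breaks down cAMP, had 12.9 to 22.1 CPM in Ctrlm and 19.6 to 36.9 in cKOm (log2 fold change 0.65 ± 0.18, SE, edgeR adjusted p = 0.0365), and the groups overlapped. Its adjusted p was over 0.05 with limma-voom, the replicate block and the hepatocyte covariate and without any 1 of 7 mice, at most 0.117. G6pc, the glucose-6-phosphatase of gluconeogenesis, had 175 to 358 CPM in Ctrlm and 153 to 192 in cKOm (log2 fold change -0.71 ± 0.19, edgeR adjusted p = 0.0249). Leaving out any 1 of 5 mice took the adjusted p of G6pc over 0.05, to at most 0.0669. So one gene of this list was higher and one lower beside the higher Sik1. In females none of the 7 passed the edgeR test and 1 had an unadjusted p under 0.05.

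Among 13 kinases and factors of the MAPK and serum response factor pathway, 1 fell in males and none rose. Mapk14, the p38 alpha kinase, had a log2 fold change of -0.31 ± 0.09 (SE, edgeR adjusted p = 0.0282), from 102 ± 6.64 CPM in Ctrlm to 81.8 ± 6.80 in cKOm (SD, n = 6). Leaving out any 1 of 7 mice took its edgeR adjusted p over 0.05, to at most 0.0715. None passed the edgeR test in females, nor had an unadjusted p under 0.05. Of the 9 glucocorticoid-induced genes, Fkbp5, a chaperone of the glucocorticoid receptor, fell in males, from 38.01 to 98.8 CPM in Ctrlm to 32.8 to 40.7 in cKOm (log2 fold change -0.80 ± 0.23, edgeR adjusted p = 0.0357). The call of Fkbp5 was lost with limma-voom, the replicate block and the hepatocyte covariate (adjusted p at most 0.268), and without any 1 of 9 mice. In females the metallothioneins, which bind zinc and other metals, rose. Mt2 had 7.16 to 10.7 CPM in Ctrlf and 14.1 to 28.4 in cKOf, without overlap, and a log2 fold change of 1.03 ± 0.19 (edgeR adjusted p = 0.00102). Mt1 had 29.3 to 66.6 CPM in Ctrlf and 66.3 to 163 in cKOf, with a log2 fold change of 0.85 ± 0.20 (edgeR adjusted p = 0.010, and 0.0838 when adjusted within each sex). Both genes are also induced by metals and by other stress. The difference between the sexes passed for Mt2 (interaction in edgeR -1.05 ± 0.28, adjusted p = 0.0391), the only gene of the 6 lists for which it did.

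None of the 8 heat shock genes passed the edgeR test in either sex (1 in males and 0 in females with an unadjusted p under 0.05), with medians of -0.16 in males and 0.29 in females. Their sum was highest in Ctrlm replicate 1, at 2098 CPM against at most 1542 in any other kidney. The hepatocyte markers moved with the male groups. With their score as a covariate, Crtc1 was the only 1 of the 7 male calls in these lists that kept an edgeR adjusted p under 0.05.

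**Figure D4:**
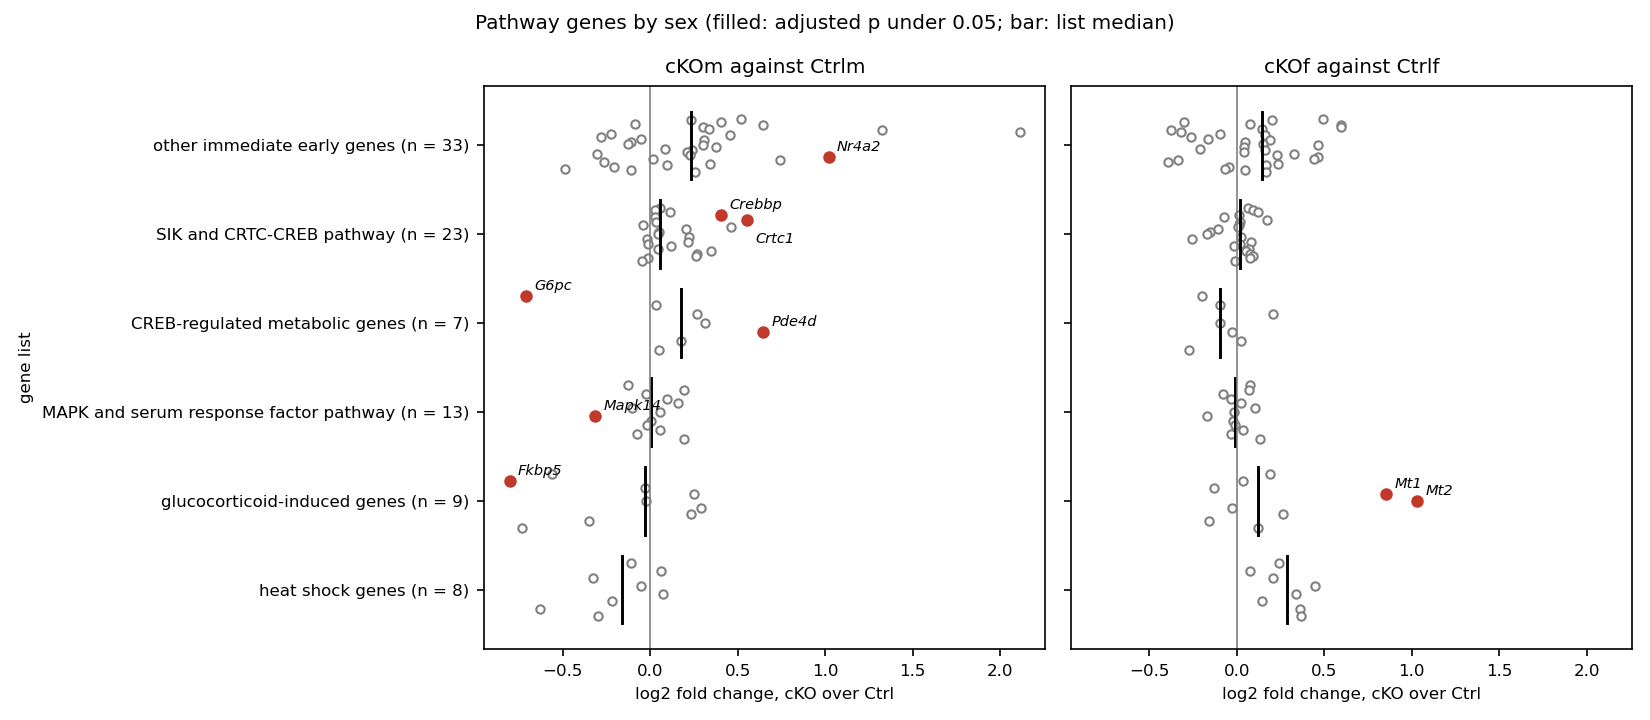
Log2 fold change of cKO over Ctrl (x axis) for the tested genes of 6 lists (y axis, n tested genes each) in males, left, and females, right. Filled points have an edgeR adjusted p under 0.05 and are named, open points do not, and bars are list medians. In males Nr4a2 at 1.02, Crtc1 at 0.56, Crebbp at 0.41 and Pde4d at 0.65 are the filled points above 0, and in females only Mt1 and Mt2 are filled.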

How the data were processed

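RNA of whole kidneys from 24 mice was sequenced, 1 library per mouse. The authors deposited whole counts of reads per gene for each kidney, without normalization. Per the labels and the study's methods, stranded TruSeq mRNA libraries were trimmed with cutadapt 1.8, aligned to GRCm38 with STAR 2.5.3a and counted with HTSeq 0.9.1. The 5 closing lines of reads not counted on a gene (34.0% to 41.5% of all reads listed) were set aside, and names were found for 55154 of 55335 genes in GENCODE.

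Counts were fitted in R 4.3.3 with edgeR 4.0.16 (quasi-likelihood test, TMM, 1 model of 4 groups, at least 1 CPM in at least 1 kidney). The Benjamini-Hochberg adjustment covered both genotype tests at once, and all genes separately for sex and for the interaction, with a threshold of 0.05. Values in CPM use TMM, and log2 CPM a prior count of 2. Permutations were run in Python 3.11.15 with numpy 2.4.6. The procedure was tested on simulated data.

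The members, the lists and the tests were chosen with earlier results of these data known. Named genes are the members, Pex5, list genes past the threshold in a sex (at most 4 per list and direction, by fold) and the 5 genes most correlated with Sik1 and with Fos. Sik2, Sik3, Crtc2 and Crtc3, list genes named beside these, were chosen after their values were seen. Replicate numbers mark different mice. The deviations of same-numbered kidneys correlated at -0.199 to 0.120 over 36 pairs, so kidneys were not paired by number. The paper describes the controls as littermates, but the labels used here do not give litters, so litter could not be taken into account. The edgeR p values set a difference between groups against the spread between mice, and the permutation p values concern a correlation over mice. Alternatives were limma-voom (limma 3.58.1), DESeq2 1.42.0, RLE normalization, 2 other filters, each sex fitted or adjusted alone, the replicate block, a hepatocyte marker covariate, ranks, another prior count (0.5) and each mouse left out. Leaving out mice for the 4 smaller lists was added after seeing the data. Every column of counts was used.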

Additional observations from a re-analysis of the deposited data

Results flagged for a closer look

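In groups of 6 kidneys, a value was singled out when its gap to the nearest other kidney was more than 0.625 of the range of the group (Dixon's 95% limit). Chance gives about 1 in 20 groups where values are independent and normally spread. These groups share mice and correlated genes, and every gene value singled out was the highest of its group, so the count is not read against that share. Of 88 groups examined, 20 were singled out, 10 of them among the 40 groups of members. The kidney of cKOm replicate 1 gave 6 of these 10, with 74.8 CPM for Nr4a1, 28.4 for Fos, 3.66 for Fosb, 49.9 for Junb, 659 for Egr1 and 30.3 for Ier2. The next highest cKOm kidneys had 17.03, 5.26, 0.733, 15.8, 94.0 and 11.1 CPM. The other 4 were Nr4a1 at 22.7 CPM in Ctrlm replicate 4 and 35.8 in cKOf replicate 5, and Fosb at 3.53 CPM in Ctrlf replicate 4 and 4.19 in cKOf replicate 5. Among list genes, the values were 1.33 CPM for Nr4a2 in Ctrlm replicate 4, 609 for G6pc in Ctrlf replicate 5, 95.0 for Mapk14 in cKOm replicate 4, 12.5 for Mt2 in cKOm replicate 6, and 28.4 for Mt2 and 163 for Mt1 in cKOf replicate 6. Reads outside annotated genes were lowest in Ctrlf replicate 4 (4.75%) and cKOf replicate 6 (4.45%), and reads aligned to more than 1 place were highest in cKOm replicate 4 (34.8%) and cKOf replicate 6 (30.5%).

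Mt2 differed between the sexes in its genotype difference, by -1.05 on the log2 scale (male minus female, edgeR test of the interaction, adjusted p = 0.0391).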

How the results depend on the processing

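Of 660 values of members' genotype differences under an alternative, 2 moved by more than the spread between replicates. These were Fos (0.07) and Egr1 (0.01) in males without cKOm replicate 1. That spread included this kidney, and a change of sign did not count as moved. Without this kidney the male value of Junb went from 0.20 to -0.41, Ier2 from 0.35 to -0.17 and Nr4a1 from 1.13 to 0.37. Many of the 660 values could hardly move at all. Adjustment within each sex leaves a fold change as it is, and a left-out mouse barely enters the value of the other sex. The share that moved is therefore not read as a measure of stability. The average sex difference of Sik1 holds the cKOm values it was chosen on and is given without a test. It was 0.22 with the replicate block, 0.11 with the hepatocyte covariate and 0.18 to 0.26 over leave-outs. Of the other members, Fosb passed the test of sex without cKOm replicate 1 (edgeR adjusted p = 0.0238). That kidney had the highest Fosb of all males, so nothing is read from this call. Sex differences that were not called changed sign over leave-outs, from -0.60 to 0.16 for Egr1, from -0.30 to 0.25 for Nr4a1 (-0.010 with the replicate block) and from -0.0059 to 0.21 for Dusp1. The 23 pairs of members were 15 by rank, 26 with the replicate block, and 8 (without cKOm replicate 1) to 29 (without Ctrlf replicate 2) over leave-outs.

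In the lists, small counts near the threshold moved. For males, adjustment within each sex gave 2 other immediate early genes and 4 SIK and CRTC-CREB genes, in place of 1 and 2. The count of other immediate early genes was 0 with limma-voom, RLE normalization, no filter, the replicate block and the hepatocyte covariate. The SIK and CRTC-CREB count was 1 with the hepatocyte covariate, RLE normalization, the filter on 6 samples and no filter. The CREB-regulated metabolic count was 1 with limma-voom and the replicate block and 0 with the covariate. The MAPK count was 0 with the covariate, and the glucocorticoid count 0 with the covariate, limma-voom and the replicate block. Over leave-outs the male counts ran from 0 to 1 (other immediate early genes, MAPK, glucocorticoid), 1 to 4 (SIK and CRTC-CREB) and 0 to 2 (metabolic), and the female count of other immediate early genes from 0 to 1. Of the 24 leave-outs, 5 took the adjusted p over 0.05 for G6pc, 7 for Pde4d, 7 for Mapk14, 9 for Fkbp5 and 0 for Crtc1, Mt1 and Mt2. Adjustment within each sex took Mt1 to 0.0838. Other calls were on the same side of the threshold with the replicate block, save those of Nr4a2, Crebbp, Pde4d and Fkbp5. Over all genes, calls higher and lower in cKO were 667 and 789 in males and 63 and 74 in females, and became 395 and 535 in males with the hepatocyte covariate and 25 and 18 in females adjusted alone. The cause of these changes was not tested. Fosb, Atf3 and Nr4a2 stayed under 5 CPM in every kidney, where few counts limit the precision.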
